A study of Rattus norvegicus with 3 samples.

Results

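The insulin-like growth factor (IGF) axis was followed in single-cell transcriptomes of the rat cochlear duct at 3 postnatal stages. Its 10 members were taken by name, whatever their levels, as the ligands Igf1 and Igf2, the receptors Igf1r and Igf2r, and the binding proteins Igfbp2, Igfbp3, Igfbp4, Igfbp5, Igfbp6 and Igfbp7. They were 10 of the 32623 genes listed in the matrices, and 9 of them were among the 7750 genes that reached 10 CPM over all cells used. Igf1r did not, at 7.14 CPM, so it is given by its values and enters no count of members past a fold threshold. CPM stands for counts-per-million of UMIs, which are the unique molecular identifiers that each mark 1 captured transcript.

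IGF-I and IGF-II are secreted growth factors that signal through the tyrosine kinase receptor IGF1R, whereas IGF2R, also known as the cation-independent mannose 6-phosphate receptor, takes up and degrades IGF-II. The binding proteins hold the ligands in extracellular fluid and matrix and set how much of them reaches the receptor, and proteases release the ligands by cutting the binding proteins. In the inner ear, IGF-I is known for its part in the postnatal growth and survival of sensory and neural cells, and loss of IGF-I causes hearing loss.

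Each stage was 1 library of untreated Sprague-Dawley rats, made from cochlear duct tissue dissociated with enzymes and captured as single cells in droplets. P1, P7 and P14 denote postnatal days 1, 7 and 14. By the study's methods each stage combined the tissue of several rats, so no level below has a spread between animals, and a stage cannot be told apart from its library. No test between stages was possible, since cells of 1 library are not replicates. Ranges in parentheses after a level are exact 95% Poisson intervals of the count, and those after a share of cells are exact 95% binomial intervals. Both cover counting error only.

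A barcode was used when 501 to 4999 genes were detected and under 25% of its UMIs were mitochondrial. This left 12779 cells at P1, 12581 at P7 and 5281 at P14, or 30641 of 34927 barcodes. The median cell held 6565 UMIs at P1, 6878 at P7 and 1614 at P14, so levels are given as CPM and shares of cells are given after every cell was thinned to 1000 UMIs, which left out 37, 193 and 735 shallower cells. Between 16 and 53 barcode sequences were shared by any pair of libraries. Clustering without the members gave 27 clusters. Marker lists sorted these into 10 classes of 50 or more cells, each called by the list it resembles. The labels name the cells greater epithelial ridge cells, but the class with the epithelial markers Epcam, Cdh1, Krt8, Krt18, Tecta, Otoa, Fbxo2, Cldn9 and Esrp1 held 553 cells, 1.80% of those used. The summed level of these markers was 6567 CPM in that cochlear epithelium-like class and 122 CPM in the mesenchyme-like class, which held 63.5% of cells and carried the fibroblast markers at 3964 CPM. The mesenchyme-like class joined 11 clusters. Cluster 6 was named from the fibroblast list, and the other clusters joined because their summed mesenchymal markers reached 10000 CPM, a limit set once levels were known. Clusters 13, of which the doublet caller Scrublet marked 86.1%, and 19 stayed unnamed, with 3.35% of cells at P1, 4.62% at P7 and 0.246% at P14.

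The 5 promoters that follow belong to the 4 members that were more than 2-fold higher in mesenchyme-like cells at P7 than at P1 (Igf2, Igfbp2, Igfbp4 and Igfbp7), and they are shown because these 4 passed that threshold. With the makeup of clusters with 50 or more cells at both stages held fixed, 0 of them did. The share of all genes that did was not calculated there. Igf2 has a pair of annotated starts. Each window of 300 bases, read 5′ to 3′ on the gene's own strand, comes from RefSeq on the GRCr8 assembly, which is not the rn6 build the counts were made on, and was matched by gene symbol. Capitals mark the letters GGGCGG or CCGCCC, the core of the GC box that Sp-family factors bind, or TATAAA, the TATA box.
Igf2, first start (chr1:207250426-207250725, reverse strand): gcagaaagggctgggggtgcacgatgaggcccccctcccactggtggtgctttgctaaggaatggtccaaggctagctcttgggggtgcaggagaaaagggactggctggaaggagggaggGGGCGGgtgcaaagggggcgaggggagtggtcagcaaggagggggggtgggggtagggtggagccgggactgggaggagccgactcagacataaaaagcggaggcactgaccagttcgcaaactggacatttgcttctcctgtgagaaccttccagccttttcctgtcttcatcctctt
Igf2, second start (chr1:207253931-207254230, reverse strand): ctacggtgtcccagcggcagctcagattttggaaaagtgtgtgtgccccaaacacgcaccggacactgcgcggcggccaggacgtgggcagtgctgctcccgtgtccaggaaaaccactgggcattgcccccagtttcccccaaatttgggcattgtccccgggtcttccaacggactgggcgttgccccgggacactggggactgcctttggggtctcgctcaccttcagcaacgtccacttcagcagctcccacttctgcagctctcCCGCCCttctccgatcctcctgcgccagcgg
Igfbp2 (chr9:81864561-81864860, forward strand): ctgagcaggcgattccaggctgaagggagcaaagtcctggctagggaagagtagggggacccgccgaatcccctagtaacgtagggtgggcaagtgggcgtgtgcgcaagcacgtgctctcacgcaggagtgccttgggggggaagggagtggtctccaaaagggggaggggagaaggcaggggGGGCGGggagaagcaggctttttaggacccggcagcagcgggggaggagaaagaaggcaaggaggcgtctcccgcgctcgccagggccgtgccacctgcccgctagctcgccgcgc
Igfbp4 (chr10:84491221-84491520, forward strand): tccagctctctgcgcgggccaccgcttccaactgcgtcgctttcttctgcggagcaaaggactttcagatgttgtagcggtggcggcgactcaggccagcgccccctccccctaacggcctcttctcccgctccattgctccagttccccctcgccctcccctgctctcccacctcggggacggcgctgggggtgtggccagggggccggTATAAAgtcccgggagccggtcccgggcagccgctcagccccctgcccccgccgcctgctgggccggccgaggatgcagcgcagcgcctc
Igfbp7 (chr14:31091486-31091785, forward strand): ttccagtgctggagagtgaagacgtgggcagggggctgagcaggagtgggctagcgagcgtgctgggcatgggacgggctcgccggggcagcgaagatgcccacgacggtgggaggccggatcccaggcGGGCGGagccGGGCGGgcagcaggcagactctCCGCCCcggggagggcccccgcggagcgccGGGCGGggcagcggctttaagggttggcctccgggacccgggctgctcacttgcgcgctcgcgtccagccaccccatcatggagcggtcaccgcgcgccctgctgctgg
The GC box letters were found on either strand in 6 of the 11 promoters of the 10 members, against 33.1% of all 33469 RefSeq promoters of this length. Igfbp7 had 4 matches, Igf2r had 2, and both Igf2 starts, Igf1r and Igfbp2 had 1 each. TATAAA or its reverse TTTATA was found in 1 of the 11, Igfbp4, against 14.2% of all. The median GC content was 66.7% over the 11 windows and 51.7% over all promoters. In the same annotation Igfbp2 and Igfbp5 are neighbours on chromosome 9, and Igfbp3 and Igfbp1, a binding protein at 0.917 CPM in these cells, are neighbours on chromosome 14.

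Over all cells the binding proteins far outnumbered the ligands, and the ligands outnumbered the receptors. The 6 binding proteins summed to 3580 CPM at P1, 6169 at P7 and 3854 at P14. The 2 ligands summed to 335, 412 and 282 CPM, and the 2 receptors to 36.5, 42.3 and 49.3 CPM. Counting is at the 3′ end of each transcript, so these levels are not divided by length, though capture can differ between genes. A sum over all cells moves with the share of each cell type as well as with the level inside it.

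**Figure D1:**
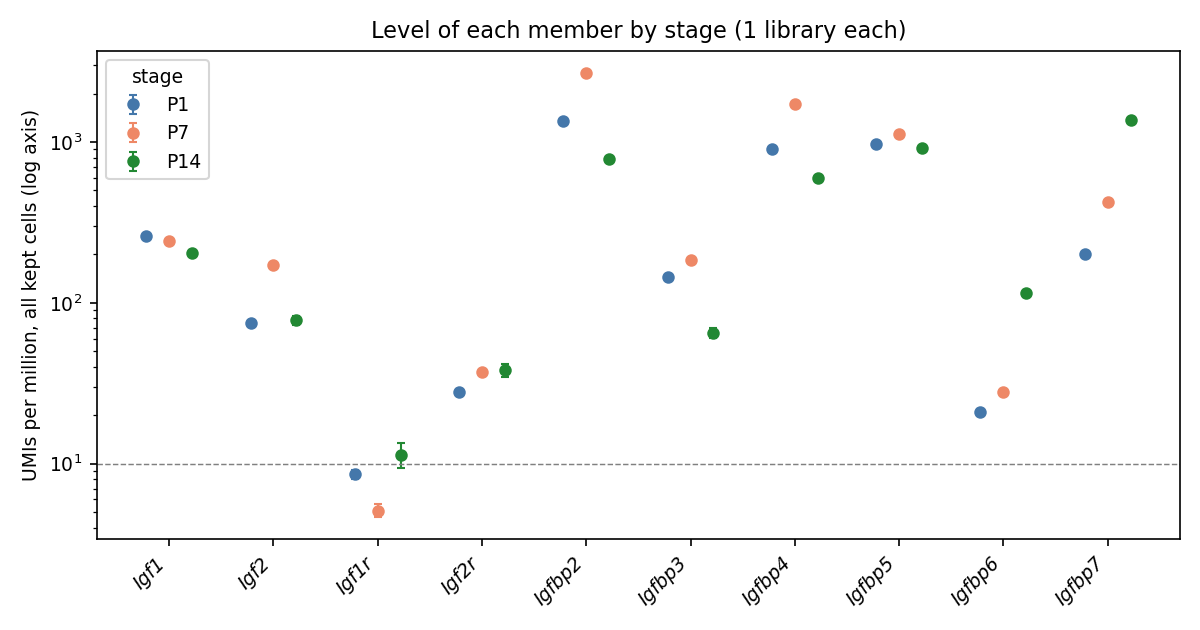
Level of each member over all cells used at P1, P7 and P14, in CPM on a log axis, with bars for the exact 95% Poisson interval. The dashed line is at 10 CPM. Igfbp2 and Igfbp4 peaked at P7, Igfbp6 and Igfbp7 were highest at P14, and Igf1r stayed near or under the line.

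Igf1, the ligand through which much of growth hormone action passes, was somewhat lower at each later stage over all cells, with separate intervals. It stood at 259 CPM (256–263) at P1, 241 CPM (238–244) at P7 and 205 CPM (196–213) at P14. Igf2, the imprinted ligand of fetal growth, stood at 75.2 CPM (73.5–77.0) at P1, 171 CPM (168–174) at P7 and 77.9 CPM (72.9–83.2) at P14, and only P7 stood apart from the other stages. After thinning, 6.35% of cells (5.93–6.79) held an Igf2 UMI at P1, 11.9% (11.4–12.5) at P7 and 7.96% (7.19–8.79) at P14, in the same order as the levels. For Igf1 the thinned shares were 18.6%, 17.8% and 15.6%.

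The receptors were low throughout. Igf1r, the signalling receptor for both ligands, was at 8.59 CPM (8.02–9.19) at P1, 5.10 CPM (4.65–5.58) at P7 and 11.3 CPM (9.41–13.4) at P14, which rests on 842, 475 and 131 UMIs. Igf2r was at 27.9 CPM (26.9–29.0), 37.2 CPM (36.0–38.5) and 38.1 CPM (34.6–41.8), so its P7 and P14 levels could not be told apart by counting error.

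Among the binding proteins, Igfbp2 and Igfbp4 were the most abundant at P7. Igfbp2 stood at 1345 CPM (1337–1352) at P1, 2680 CPM (2670–2691) at P7 and 786 CPM (770–802) at P14. Igfbp4, the substrate of the protease PAPP-A, followed the same course at 903, 1730 and 600.1 CPM. Igfbp3, the main carrier of IGF in serum, also had its lowest level at P14, at 144 CPM (141–146), 185 CPM (183–188) and 64.9 CPM (60.4–69.7). Igfbp5, which binds extracellular matrix, varied least of the 6, at 968, 1123 and 921 CPM.

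Igfbp6 and Igfbp7 were also higher at P7 than at P1, but they were highest at P14. Igfbp6, which prefers IGF-II, stood at 20.9 CPM (19.96–21.8), 28.1 CPM (27.0–29.2) and 114 CPM (108–121). Igfbp7, a low-affinity member of the family and a component of vascular basement membrane, stood at 200.03 CPM (197–203), 422 CPM (418–426) and 1367 CPM (1346–1389). The thinned share of cells with an Igfbp7 UMI went from 9.80% at P1 to 17.7% at P7 and 55.3% at P14. The unthinned shares were 24.8%, 40.4% and 66.0%.

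A gene was counted as past the threshold when its log2 ratio of CPM, with 10 CPM added to both stages, was at least 1 in size. From P1 to P7, 2 of the 9 members that could be counted were higher, Igf2 (log2 ratio 1.09) and Igfbp7 (1.04), where 3.32% of all 7750 genes were, and 0 were lower, where 1.99% of all genes were. Igfbp2 (0.99) and Igfbp4 (0.93) fell just short of the threshold. The median log2 ratio was 0.34 over the members and 0.09 over all genes. With this median subtracted, 0 members were past the threshold, where 2.43% of all genes were higher and 2.75% lower. With every cell thinned to 1000 UMIs, Igf2 alone was, where 3.39% of all genes were higher and 2.06% lower. From P7 to P14, 2 members were higher, Igfbp6 (1.71) and Igfbp7 (1.67), against 8.03% of all genes, and 4 were lower, Igfbp2 (-1.76), Igfbp4 (-1.51), Igfbp3 (-1.38) and Igf2 (-1.04), against 5.34% of all genes. With cells thinned, Igf2 (-0.70) was no longer past the threshold, and 5.9% of all genes were lower. With the mean of per-cell CPM only Igfbp2 and Igfbp4 were lower past the threshold, where 6.09% of all genes were. The median was -0.28 over the members and 0.02 over all genes. Both comparisons share the P7 library.

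The question of which cells carry the axis was answered by class. Of the 9 members counted, 9 were at least 2-fold higher in 1 class than in all other cells, where 36.1% of all genes were. By this log2 ratio, with 10 CPM added, mesenchyme-like cells led for Igf2, Igfbp2, Igfbp4, Igfbp5 and Igfbp6, cochlear epithelium-like cells for Igf1 and Igfbp3, pericyte- and smooth muscle-like cells for Igf2r, and endothelial-like cells for Igfbp7. With each cell's class taken from its own marker UMIs, 7 were past the threshold, and the share of all genes was not calculated. Igfbp3 and Igfbp6 both came to 0.97 and were not, and the leading class became cochlear epithelium-like for Igfbp2 and neutrophil-like for Igf2r.

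**Figure D2:**
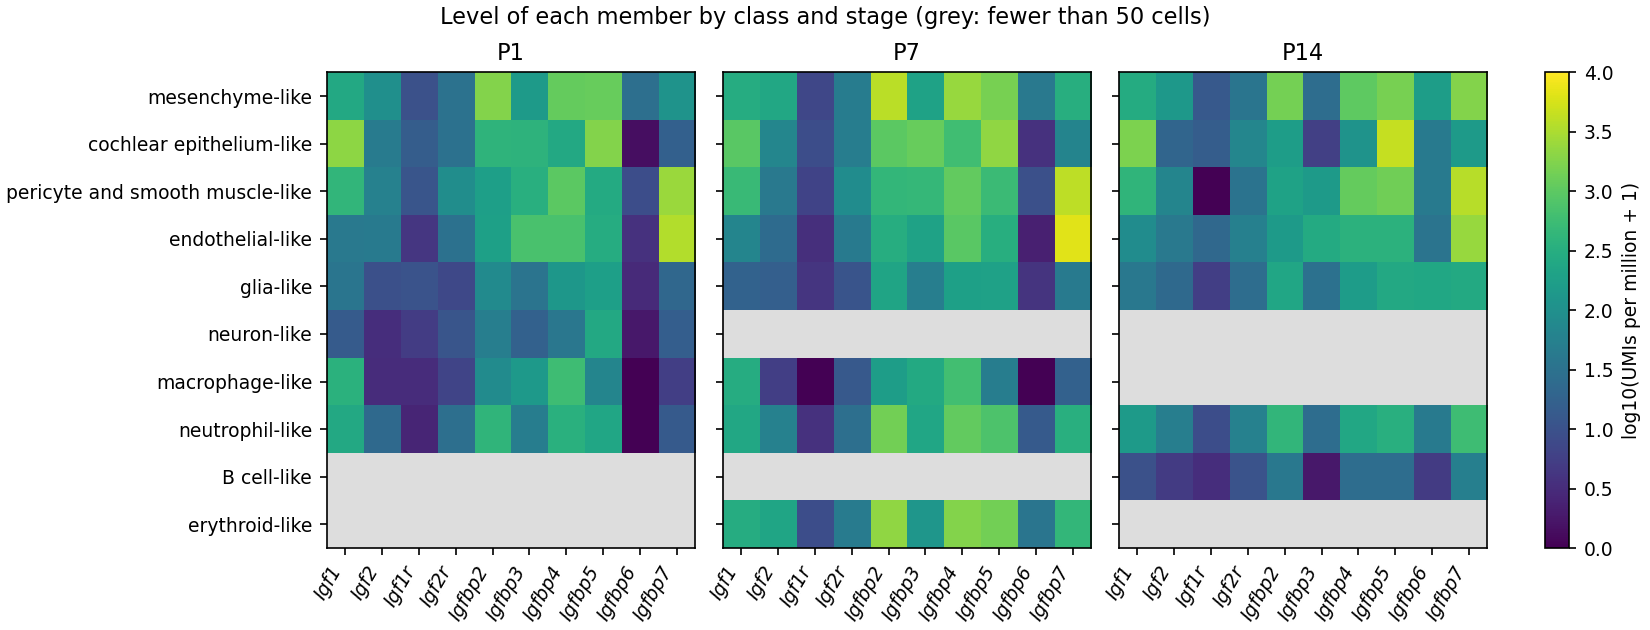
Level of each member in each class at P1, P7 and P14, colored by log10 of CPM plus 1, with grey for classes under 50 cells at that stage. Igfbp7 was brightest in endothelial-like and pericyte- and smooth muscle-like cells, Igf1 in cochlear epithelium-like cells, and Igfbp2 in mesenchyme-like cells at P1 and P7.

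Igf1 was highest in the cochlear epithelium-like class at every stage, at 2071 CPM (2014–2130) at P1, 959 CPM (915–1006) at P7 and 1601 CPM (1434–1781) at P14. Over all stages this was 1590 CPM against 218 CPM in all other cells, a ratio of 7.30 (7.11–7.48). The log2 ratio with 10 CPM added was 2.81, and 1.45 with each cell's class taken from its own marker UMIs. The class held 2.17% of all UMIs and 13.9% of those of Igf1, while mesenchyme-like cells held 65.4% of all UMIs and 73.8% of those of Igf1. Pericyte- and smooth muscle-like cells came next at 428 CPM (399–459), 522 CPM (490–555) and 416 CPM (296–569).

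Macrophage-like cells had 360 CPM (321–402) of Igf1 at P1 and 295 CPM (255–339) at P7, and mesenchyme-like cells had 259, 303 and 285 CPM, so these classes overlapped at P7. Endothelial-like cells stood at 40.01, 64.2 and 88.2 CPM and glia-like cells at 35.3, 17.1 and 39.7 CPM. Neuron-like cells at P1, with a median of 21170.5 UMIs, held 12.9 CPM, and 0.694% of them had an Igf1 UMI after thinning. B cell-like cells at P14, with a median of 3520 UMIs, held 8.78 CPM, and the share was 0.702%. The thinned shares in cochlear epithelium-like cells were 37.8%, 33.7% and 68% in stage order. Free RNA in the droplets can give a UMI to a cell of any class, and its part in these shares was not tested.

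Within the mesenchyme-like class, Igf1 was highest in cluster 6, at 632 CPM. This cluster, led by Ramp3, Dcn and Gpc3, held 34 cells at P1, 1818 at P7 and 1 at P14. Igf1 went both ways between P1 and P7 inside the mesenchyme-like clusters. It was higher at P7 in cluster 7 (47.5 against 92.3 CPM) and cluster 0 (276 against 381 CPM), and lower in cluster 1 (425 against 268 CPM) and cluster 2 (349 against 203 CPM).

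Few epithelium-like cells carried most of the Igf1. The 10% of these cells with the most Igf1 UMIs held 72.3% of the class's Igf1 UMIs at P1 and 71.5% at P7. At P14, where the class had 53 cells, they held 36.6%. The median cell had 1 Igf1 UMI at P1 and the highest had 348. In macrophage-like cells at P1 the same share was 25.9%, with a highest cell of 12 UMIs.

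Igfbp3 was more uneven in this class at P7. The 10% of cells richest in it held 96.9% of its UMIs, and the highest cell had 467. To describe these cells, the epithelium-like cells richest in Igf1, in Igfbp3 and in Igfbp5 by CPM were taken as sets of 28 of 283 cells at P1 and 22 of 217 at P7. The sets were chosen after the values were seen, and each set's own gene is high because it chose the cells. In sets this small, unrelated genes would also share few cells, so a low count cannot show that they lie in different cells. The Igf1 and Igfbp3 sets shared 0 cells at P1 and 0 at P7. The Igf1 and Igfbp5 sets shared 0 and 4 cells, and the Igfbp3 and Igfbp5 sets shared 8 and 1.

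**Figure D3:**
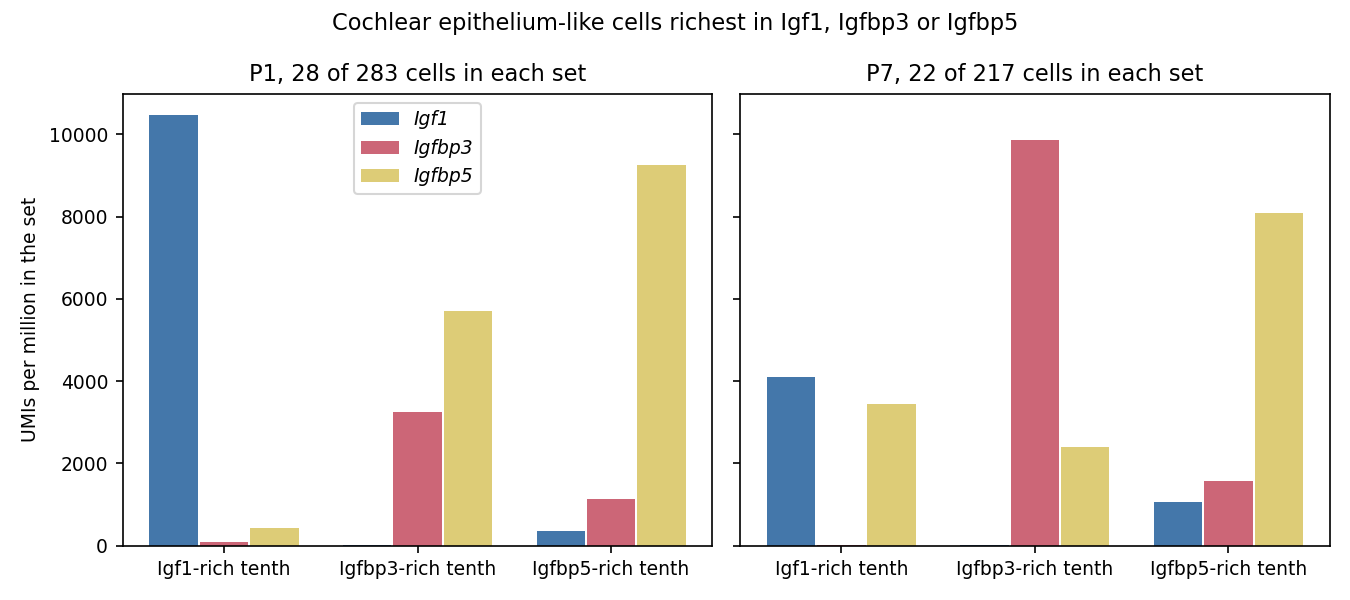
Level of Igf1, Igfbp3 and Igfbp5, in CPM, in the 10% of cochlear epithelium-like cells richest in each of them at P1 and P7. Each set's own gene is high by choice. Igf1 in the Igfbp3-rich cells was 11.4 CPM at P1 and 24.5 CPM at P7, against 2236 and 1078 CPM in the rest of the class.

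The Igf1-rich cells at P1 held 101 CPM of Igfbp3 and 437 CPM of Igfbp5, where the rest of the class held 439 and 2043 CPM. At P7 the Igf1-rich cells again held less Igfbp3, at 10.0 CPM against 1389 CPM in the rest. Their Igfbp5 was higher there, at 3444 CPM against 1955 CPM. The genes that led each set against the rest of the class are a description, since any choice of cells has leading genes. The Igf1-rich set at P1 was led by Ostn, Nrp2, Nebl, Itm2a and Rgcc, and the set at P7 by Pmch, at 13125 CPM against 5.27 CPM in the rest, then Spink8, Egfl6, Enc1 and Cfi. Pmch encodes the precursor of melanin-concentrating hormone.

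The Igfbp3-rich set at P1 was led by Nrcam, Nrip3, Slitrk6, Sox2 and Adgrg6, of which Sox2, a marker of supporting cells and their progenitors, stood at 834 CPM against 99.1 CPM in the rest. At P7 it was led by Gal, Fgfbp3, Eva1a, Slitrk6 and Slc1a3, and Slitrk6 thus led at both stages. The Igfbp5-rich set was led by Lgals1, Fst, Bmp4, Gata2 and Gdpd1 at P1 and by Epyc, Nbl1, Lum, RGD1560394 and Wnk1 at P7. The median cell of the Igf1 set held 9844 UMIs at P1 and 13594 at P7, against 6923 and 5287 in the rest. The Igfbp3 set was shallower than the rest, at 4870 against 7675 UMIs at P1 and 5893 against 6926 at P7. Its lowest cell had 2 Igfbp3 UMIs at each stage. For the Igfbp5 set the medians were 7440 against 7565 UMIs at P1 and 13553.5 against 5906 at P7. The part of cell size and doublets in these sets was not tested.

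Igf2 was a mesenchyme-like transcript. It stood at 97.2 CPM (94.9–99.5) at P1, 247 CPM (243–251) at P7 and 133 CPM (123–143) at P14 in those cells, and they held 89.9% of its UMIs against 65.4% of all UMIs. Pericyte- and smooth muscle-like cells had 57.3, 40.1 and 64.0 CPM, and endothelial-like cells had 43.3, 24.5 and 40.9 CPM, in both cases with a P7 interval that overlapped that of P14. Cochlear epithelium-like cells had 44.6 CPM (36.5–53.9), 68.3 CPM (56.8–81.4) and 19.1 CPM (5.19–48.8). Macrophage-like cells had 2 UMIs at P1 and 3 at P7, or 2.27 and 4.49 CPM. Among clusters it was highest in cluster 2 (372 CPM), led by the bone and skeletal gene Dlx5 with Sfrp4 and Gdf10, and in cluster 6 (366 CPM).

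Igf2r led in pericyte- and smooth muscle-like cells, at 92.0 CPM (78.8–107) at P1 and 88.1 CPM (75.3–103) at P7. At P14 the class had 3 Igf2r UMIs, and 32.0 CPM (6.60–93.5) is too wide to place. Over all stages its level was 2.80 times that in all other cells (2.50–3.12). Mesenchyme-like cells held 31.6, 46.2 and 35.0 CPM. Igf1r was near 10 CPM or lower in most classes. In endothelial-like cells it was at 3.29 CPM (1.21–7.16) at P1, 2.45 CPM (0.667–6.26) at P7 and 21.3 CPM (15.2–28.9) at P14, from 6, 4 and 40 UMIs, and its P14 interval lay above both others. Igf1r was lower at P7 than at P1 in all 7 mesenchyme-like clusters with a value at both stages. All mesenchyme-like cells together held 74.3% of the 475 Igf1r UMIs at P7, so the values of single clusters rest on low counts.

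Igfbp2 marked mesenchyme-like cells, which held 91.9% of its UMIs. Its level there was 1801 CPM (1791–1811) at P1, 3903 CPM (3887–3920) at P7 and 1461 CPM (1428–1493) at P14. Cluster 12 stood far above the rest at 9553 CPM, with 5159 CPM at P1 and 10130.5 CPM at P7. That cluster was led by Gcg, Car3 and Cnmd, the last a cartilage matrix gene. The next, cluster 5, led by the retinoic acid-synthesizing gene Aldh1a2 with Calb2 and Kcnk2, had 3773 CPM. Epithelium-like cells had 393, 969 and 167 CPM.

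Igfbp4 was spread more widely. Mesenchyme-like cells had 1151, 2451 and 1034 CPM, and pericyte- and smooth muscle-like cells had 974 CPM (930–1019), 1098 CPM (1051–1146) and 1152 CPM (945–1391), so the classes overlapped at P14. Macrophage-like cells, which held almost no Igf2 or Igfbp7, had 572 CPM (523–624) at P1 and 607 CPM (550–669) at P7. After thinning, 42.1% and 48.3% of them had an Igfbp4 UMI, against 4.51% of neuron-like cells at P1.

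Igfbp5 had its highest level in epithelium-like cells, at 1816 CPM (1763–1871), 2201 CPM (2133–2270) and 4507 CPM (4224–4804), but mesenchyme-like cells held 84.7% of its UMIs at 1187, 1512 and 1511 CPM. The P14 value in the epithelium-like class came from 946 UMIs in 30.2% of its 53 cells, against 81.6% of cells at P1 and 73.7% at P7. It rests on few cells, since the highest cell had 249 of these UMIs and the median cell 0. The cells richest in Igfbp5, taken as the same share of the class as for Igf1 above, held 77.5% of its UMIs at P14. At P1 and P7 they held 57.1% and 60.9%. In pericyte- and smooth muscle-like cells Igfbp5 stood at 276 CPM (253–301) at P1, 529 CPM (497–562) at P7 and 1355 CPM (1129–1612) at P14. These intervals were separate. Of the members, Igfbp5 was also the most abundant in neuron-like cells, at 262 CPM at P1.

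The class with the highest level of Igfbp3 changed with stage. Mesenchyme-like cells held 72.7% of its UMIs at P1 and 68.0% at P7, close to their 70.8% and 62.3% of all UMIs. At P1 endothelial-like cells were highest at 714 CPM (675–754), at P7 epithelium-like cells were at 1161 CPM (1112–1212), where 22 cells held 95.4% of the class's UMIs, and at P14 endothelial-like cells were again first at 277 CPM (254–302). The endothelial level at P7 was 199 CPM (178–222). Cluster 9, led by Plvap, Cldn5 and Adgrf5, carried this difference at 719 CPM at P1 and 203 CPM at P7. Without the cells richest in Igfbp3, the rest of the epithelium-like class stood at 162 CPM at P1 and 60.8 CPM at P7. These values depend on that choice of cells at each stage and are no measure of a change in the others. The whole class had 391 CPM at P1 and 1 UMI, or 4.76 CPM (0.121–26.5), at P14. Mesenchyme-like cells went from 148 and 202 CPM to 25.8 CPM (21.7–30.5), and at P14 endothelial-like cells held 69.0% of Igfbp3 UMIs.

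Igfbp7 was the vascular member. Endothelial-like cells had 3479 CPM (3394–3566) at P1, 6507 CPM (6384–6632) at P7 and 2432 CPM (2362–2504) at P14, and pericyte- and smooth muscle-like cells had 2472, 3936 and 3734 CPM. Over all stages the endothelial level was 15.0 times that in all other cells (14.7–15.2). In mesenchyme-like cells it stood at 114 CPM (112–117), 320 CPM (315–325) and 1804 CPM (1768–1840). These cells held 60.2% of its UMIs at P14 and 45.6% of all UMIs. Igfbp6 was highest in mesenchyme-like cells at P1 (27.9 CPM) and P7 (40.6 CPM), while at P14 glia-like cells were first at 237 CPM (209–268) and mesenchyme-like cells had 166 CPM (155–177). Glia-like cells had 2.01 CPM (1.24–3.07) at P1 and 2.94 CPM (2.26–3.76) at P7. The glia-like cells at P14 were mostly cluster 17, with 392 cells at P14 and 4 at P7, and cluster 3 held most at P7. A cluster that comes almost wholly from 1 library may be that library and not a cell type. The B cell-like class gave 3.99 CPM of Igfbp6 and 51.9 CPM of Igfbp7 at P14.

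Some classes held signs of mixed cells. Scrublet marked 13.3% of endothelial-like cells at P1 and 16.0% at P7, and 12.4% and 14.6% of pericyte- and smooth muscle-like cells. Neutrophil-like cells went from 409 to 1393 CPM of Igfbp2 and from 12.5 to 334 CPM of Igfbp7 between P1 and P7, and Scrublet marked 24.4% and 29.9% of them. Their summed fibroblast markers were at 2504 CPM over all stages. The erythroid-like cluster, with 9.54% marked and a median of 1292 UMIs, had Dcn and Col3a1 among its leading genes and fibroblast markers at 5440 CPM, and it held 196 CPM of Igf2, above the 164 CPM of mesenchyme-like cells over all stages, 2024 CPM of Igfbp2 and 1626 CPM of Igfbp4. The part of mixed cells in the levels of these classes was not tested.

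The mix of binding proteins differed between classes and, in some of them, between stages. In mesenchyme-like cells Igfbp2 was first at P1 (40.7% of the UMIs of the 6 genes) and P7 (46.3%), and Igfbp7 was first at P14 (30.1%), up from 2.58% and 3.80%. In epithelium-like cells Igfbp5 was first at every stage, at 63.2%, 44.1% and 90.4%. The P14 share rests on few cells, since the median cell of the class held 0 Igfbp5 UMIs there and the highest held 249. Igfbp7 was first in endothelial-like cells (64.7%, 78.5% and 66.7%) and in pericyte- and smooth muscle-like cells (58.3%, 60.9% and 56.3%). Macrophage-like cells were led by Igfbp4, at 65.6% at P1 and 54.8% at P7. Glia-like cells had the lowest sum of the classes drawn, at 450.3, 694 and 1177 CPM, and Igfbp6 made up 20.1% of it at P14. Their first gene was Igfbp5 at P1 (40.2%), Igfbp2 at P7 (30.6%) and Igfbp7 at P14 (22.6%). Igfbp7 was also first at P14 in neutrophil-like cells (34.6%) and over all cells (35.5%).

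**Figure D4:**
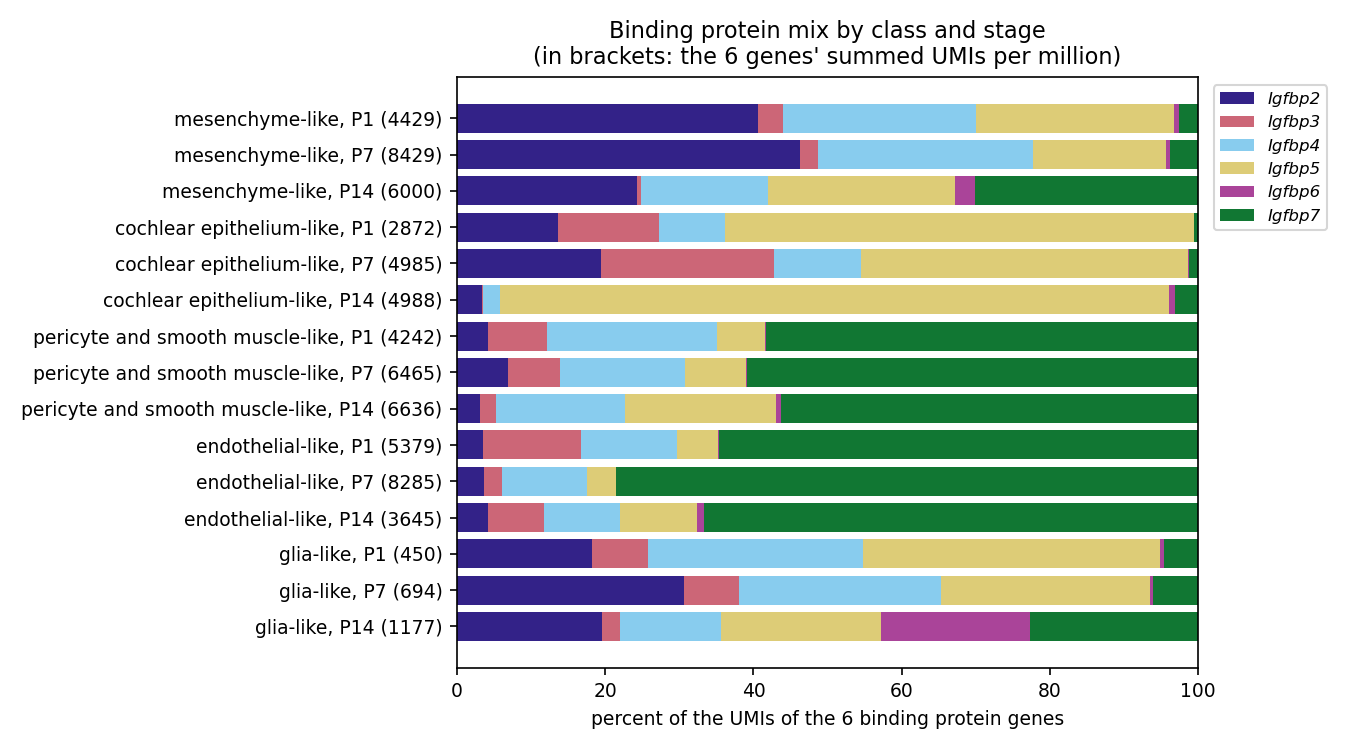
Share of each binding protein in the UMIs of the 6 binding protein genes, in percent, for 5 classes at each stage, with the summed CPM in brackets. Igfbp2 and Igfbp4 fill most of the mesenchyme-like bars at P1 and P7, Igfbp5 the epithelium-like bars at P1 and P14, and Igfbp7 the vascular bars.

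The P1 to P7 ratios were also calculated inside the mesenchyme-like class and with the makeup of the tissue held fixed. In mesenchyme-like cells alone, 4 of the 9 members were past the threshold and higher at P7, Igf2 (log2 ratio 1.26), Igfbp2 (1.11), Igfbp4 (1.08) and Igfbp7 (1.41), against 3.42% of all genes, and 0 were lower, against 1.51%. With the shares of 8 classes held fixed, the same 4 were higher, at 1.12 for Igfbp2, 1.10 for Igfbp7, 1.05 for Igfbp4 and somewhat more for Igf2, against 2.97% of all genes, and 0 were lower, against 1.5%. The P1 mesenchyme-like cells, however, were mostly clusters 0 (30.7%) and 1 (30.0%), and the P7 cells mostly clusters 2 (34.3%) and 6 (24.6%). With the shares of 17 clusters held fixed, 0 members were past the threshold, at 0.73 for Igf2, 0.52 for Igfbp2, 0.94 for Igfbp4 and 0.85 for Igfbp7. With only the 7 mesenchyme-like clusters with 50 or more cells at both stages held fixed, again 0 were, at 0.74, 0.46, 0.97 and 0.86. The share of all genes past the threshold was not calculated with clusters held fixed, so these counts of 0 have no background. Cluster 6, with 34 cells at P1 and 1818 at P7, was left out of both calculations, so neither covers its cells. The libraries were merged before clustering, and several clusters came mostly from 1 stage. Cluster 0 had 2820 cells at P1 and 469 at P7, and cluster 2 had 225 and 2535. Holding such clusters fixed can also take out a change of level inside cells, so makeup and level cannot be told apart here.

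**Figure D5:**
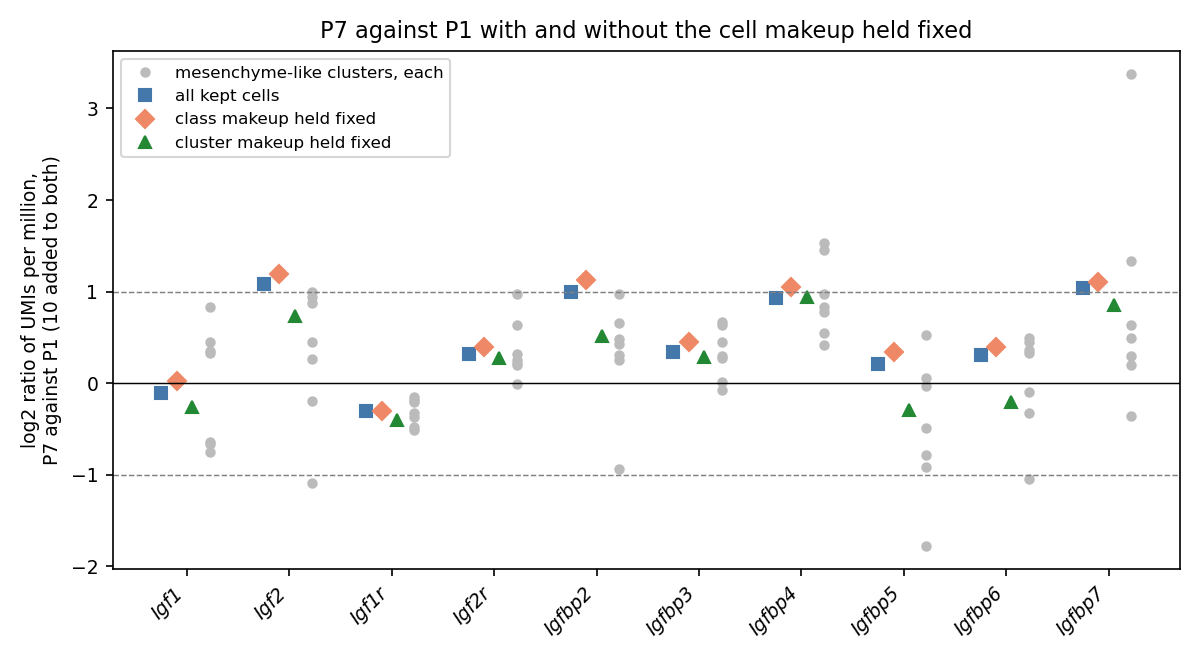
The log2 ratio of CPM at P7 against P1, with 10 added to both, for each member over all cells (squares), with class makeup held fixed (diamonds), with cluster makeup held fixed (triangles) and in each of 7 mesenchyme-like clusters (grey points). Dashed lines mark 1 and -1. Igfbp4 lay above 0 in every cluster, while Igfbp5 and Igf2 lay on both sides.

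Inside the mesenchyme-like clusters the members parted ways. Igfbp4 was higher at P7 in all 7, with log2 ratios from 0.42 in cluster 12 to 1.53 in cluster 7. Igf2 was higher in clusters 1, 2 and 11 (0.88, 1.00 and 0.94) but lower in cluster 12, at 68.4 CPM at P1 and 26.7 CPM at P7. Igfbp7 was much higher in cluster 7, led by Sp5, Cav1 and Ccn3, where it went from 42.5 to 534 CPM, and there Igfbp2 was lower, at 1061 and 547 CPM. Igfbp5 was lower in cluster 0, led by Isyna1, Col9a3 and Crym, at 1027 and 293 CPM, and higher in cluster 11, led by the proliferation genes Cenpf, Top2a and Mki67, at 583 and 842 CPM.

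Igfbp2 was higher at P7 than at P1 in each named class with a value at both stages, and also over all cells. The smallest differences were in endothelial-like cells (186 and 305 CPM) and macrophage-like cells (85.1 and 166 CPM). In macrophage-like cells the thinned shares with an Igfbp2 UMI were 6.54% (2.67–13.0) and 7.87% (3.22–15.5), against 3.47% of neuron-like cells at P1, so those values cannot be told from free RNA. Igfbp3 and Igf2 did not share this, since both were lower at P7 in endothelial-like cells.

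From P7 to P14, mesenchyme-like cells had 2 members higher, Igfbp7 (2.46) and Igfbp6 (1.79), against 7.66% of all genes, and 3 lower, Igfbp3 (-2.57), Igfbp2 (-1.41) and Igfbp4 (-1.24), against 7.29%. Of the P14 cells, 88.1% were cluster 4, led by Ptgds, Coch and Slc7a11, which held 2529 cells at P14 and 5 at each earlier stage. No mesenchyme-like cluster could therefore be compared across P7 and P14, and cell makeup and level cannot be told apart there. In cluster 4 Igfbp7 was at 2072 CPM and Igfbp6 at 193 CPM at P14, and in cluster 20, led by Clec3b, Gpcpd1 and Rarres1, they were at 562 and 40.3 CPM.

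Across the 25 clusters of 50 or more cells the members kept different company, given here as Pearson's r of log2 CPM with 10 added. The clusters share libraries and differ in depth. Among members, Igf2 and Igfbp5 (0.83), Igfbp2 and Igfbp4 (0.82) and Igf2 and Igfbp4 (0.81) were most alike, and Igfbp3 and Igfbp6 least (0.07). Among all genes, Igf2 was most like Gli1, a target of Hedgehog signalling (0.92), Gpc3 (0.92) and Fam180a (0.91). Igfbp2 was most like Kazald1 (0.96), Loxl1 (0.95) and Prrx2 (0.94). Igfbp7 was most like the vascular genes Pear1 (0.93), Ecm1 (0.92) and Epas1 (0.88).

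Igf1 had as nearest genes Glb1 (0.88), Plxnb2 (0.81) and Cybrd1 (0.80), and Igfbp3 had Ugp2 (0.83), Mvb12a (0.83) and Sdf4 (0.79). Igfbp4 was nearest to Mdfi (0.91), Angptl4 (0.90) and Surf4 (0.90), and Igfbp5 to Surf4 (0.93), Chsy1 (0.91) and Igsf3 (0.90). Igfbp6 was nearest to Dmp1 (0.87), Dcn (0.84) and Ptch1 (0.84), and Igf2r to Ptprk (0.88), Mgp (0.86) and Vasn (0.83). For Igf1r, at its low counts, they were Zfp322a (0.84), Bnip3l (0.83) and Nfat5 (0.82).

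The genes around the axis were described by a wider list. Of 31 genes listed as other binding proteins, insulin and growth hormone receptors, adaptors, proteases, RNA-binding proteins, imprinted growth genes and kinases, 29 were in the matrices and 15 reached 10 CPM. From P1 to P7, 0 of the 15 were higher, against 3.32% of all genes, and 1 was lower, against 1.99%. This was Plagl1, an imprinted transcription factor gene, at 30.6, 6.62 and 21.0 CPM over the 3 stages. From P7 to P14, 1 was higher, Pik3r1, a regulatory subunit of PI3 kinase, from 123 to 367 CPM, against 8.03% of all genes. Lower were 2, against 5.34%, the serine protease gene Htra1, from 255 to 94.3 CPM, and the kinase gene Akt1, from 171 to 70.6 CPM. Their median log2 ratios were -0.16 from P1 to P7 and 0.42 from P7 to P14. Of the 15, 8 were at least 2-fold higher in 1 class, against 36.1% of all genes, among them Htra1 in glia-like cells (506 CPM) and the imprinted cell cycle inhibitor gene Cdkn1c in mesenchyme-like cells (567 CPM). The insulin receptor gene Insr was at 4.09, 3.37 and 21.0 CPM, below the level filter over all stages.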

How the data were processed

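The deposited files were gene-by-barcode matrices of UMI counts, 1 library per stage, which the authors made with bcl2fastq and Cell Ranger (3.1.0 per the file headers) on rn6 from 3′ libraries, and which they analysed with Seurat 3.1.1. The matrices hold whole counts that were not normalized, in 34927 barcodes, the number of cells the study gives as passing its filters. Those filters (over 500 and under 5000 genes, under 25% mitochondrial UMIs) left 30641, with 98005495, 93080129 and 11641065 UMIs at P1, P7 and P14. Members, marker lists and pathway list were chosen with earlier results of these data known. Named genes were the members, pathway genes past 2-fold between stages, the 3 genes most correlated with each member and the 3 leading each cluster. Igfbp1, Insr, Cdkn1c and the genes leading the epithelial sets were chosen after values were seen, and Htra1 is also named by class.

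Counts were summed in Python 3.11.15 (numpy 2.4.6, scipy 1.17.1, pandas 2.3.3) and cells clustered in R 4.3.3 with Seurat 5.3.0 (1986 variable genes without the members, 10 principal components, resolution 0.8). Doublets were marked with Scrublet in scanpy 1.11.5 and kept. It marked 4.87% of cells at P1, 6.16% at P7 and 0.0379% at P14, so it did not work at P14. Scripts were tested on simulated data. Alternatives to each choice are given at the end.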

Additional observations from a re-analysis of the deposited data

Results flagged for a closer look

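Igfbp3, Igfbp5 and Igfbp7 went opposite ways in different classes between the same stages. These were found because 1 class was more than 2-fold higher and another more than 2-fold lower. With 1 library per stage the differences were not tested. Values are differences between the log2 ratios of the 2 classes.

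From P1 to P7, Igfbp3 was higher in neutrophil-like cells (2.02) and lower in endothelial-like cells (-1.79), a difference of 3.81, and higher in cochlear epithelium-like cells (1.55), a difference of 3.34 from endothelial-like cells. In the epithelium-like class this rests on 22 cells that held 95.4% of its Igfbp3 UMIs at P7. The rest of the class had 162 CPM at P1 and 60.8 CPM at P7. Both values depend on the choice of cells, since those richest in Igfbp3 were taken out at each stage. From P7 to P14, Igfbp5 was higher in pericyte- and smooth muscle-like cells (1.34) and lower in neutrophil-like cells (-1.16), a difference of 2.50. It was also higher in cochlear epithelium-like cells (1.03), a difference of 2.19 from neutrophil-like cells. The epithelium-like level at P14 rests on few cells, since 30.2% of the 53 cells had an Igfbp5 UMI and the highest had 249. Scrublet marked 29.9% of neutrophil-like cells at P7 and its part was not tested.

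From P7 to P14, Igfbp7 was lower in endothelial-like cells (-1.42). It was higher in mesenchyme-like cells (2.46), a difference of 3.87, in glia-like cells (2.42), a difference of 3.83, and in cochlear epithelium-like cells (1.14), a difference of 2.55. The 53 epithelium-like cells held only 0.201% of Igfbp7 UMIs at P14. The glia-like cells at P14 were mostly cluster 17, with 392 cells at P14 and 4 at P7.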

How the results depend on the processing

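No paired analysis was possible because each stage was 1 library. Higher members from P1 to P7 (2 as reported) became 1, Igf2, with the mean of per-cell CPM (3.28% of all genes were higher). They were also 1, Igf2, with cells thinned to 1000 UMIs (3.39%). The same held with totals without mitochondrial, hemoglobin and ribosomal protein genes (3.39%). With log2 ratios less their median they became 0 (2.43%). Lower members from P7 to P14 (4) became 2 with the mean of per-cell CPM (6.09% of all genes were lower). They became 3 with cells thinned (5.9%), which lost Igf2. The 4 members past 2-fold at fixed class makeup became 1 with each cell's class taken from its own marker UMIs and, in an alternative chosen after seeing the data, 0 with clusters held fixed. The 4 in mesenchyme-like cells became 0 with clusters of the class held fixed, also chosen afterwards. Both cluster alternatives left out cluster 6, with 34 cells at P1. No share of all genes was calculated for the class and cluster alternatives. The cause of these changes was not tested. The 2 higher members from P7 to P14 stayed 2 in every alternative run, where from 6.83% to 13% of all genes were higher. With a mitochondrial limit of 10%, the 2 higher members at P7 were Igf2 and Igfbp2, against 3.25% of all genes. All 9 leading classes stayed the same in each alternative but the per-cell marker classes, which kept 7 and left 7 members past 2-fold. There the leading-class log2 ratio went from 2.16 to 0.97 for Igfbp3 and from 3.85 to 2.98 for Igfbp7, and for Igfbp2 it was 3.54 with Scrublet-marked cells left out. Single log2 ratios moved beyond counting error in 41 of 80 cases from P1 to P7 and 31 of 80 from P7 to P14. Of the leading-class ratios, 73 moved beyond counting error or changed their leading class, and 37 did neither. No call changed sign, but the near-zero Igf2r ratio from P7 to P14 (0.03) was -0.08 with a mitochondrial limit of 10%, -0.10 with cells thinned and -0.09 with reduced totals. Depth limits P14 and Igf1r.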
